A study of Mus musculus with 4 samples.

Results

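Foxo1 peaks at cytokine receptor and Stat loci were taken from 6 windows of the mouse build mm9 that are named for 9 genes: Jak1 (chromosome 4, 100.77 to 100.99 Mb), Il6st (chromosome 13, 113.20 to 113.35 Mb), Il4ra and Il21r (chromosome 7, 132.64 to 132.83 Mb), Stat5b, Stat5a and Stat3 (chromosome 11, 100.59 to 100.85 Mb), Il2rb (chromosome 15, 78.26 to 78.38 Mb) and Tgfbr2 (chromosome 9, 115.94 to 116.14 Mb). A peak belonged to a window when its centre lay inside it. The windows cover 1140 kb and held 95 of the 77652 deposited intervals. Of these, 32 came from the antibody list of 16473 peaks, 51 from the streptavidin list of 57748 peaks and 12 from the third list, of 3431 intervals, which is named for both methods.

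The study mapped Foxo1 on chromatin of mouse nTreg cells, the labels' name for a regulatory T cell population, by ChIP-seq. Chromatin of wild-type B6 mice was precipitated with a Foxo1 antibody (Abcam Ab39670), and chromatin of Foxo1tagBirA mice, whose endogenous Foxo1 carries biotin, was precipitated with streptavidin. Each route had 1 library and 1 input library. The age of the mice, the number pooled and the promoter that drives BirA are not given in the sources used here. The third list is attached to the input library of the antibody route, although it holds intervals and no input values. With 1 library per group no difference below has a replicate check, and no p-value is given. Read depth is unknown because the lists hold no counts.

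Foxo1 is a forkhead transcription factor that leaves the nucleus when PI3K and Akt are active, and in regulatory T cells it is known as a regulator of their function. The genes studied here, apart from Tgfbr2, belong to a signalling chain. Cytokine receptors of the Il2rb, Il4ra, Il21r and Il6st type have no kinase of their own and work through Janus kinases such as Jak1, which phosphorylate Stat proteins that then move to the nucleus. Il2rb and Stat5 carry the IL-2 signal on which regulatory T cells depend, Il6st and Stat3 carry the IL-6 signal, and Tgfbr2 is a receptor kinase for TGF-beta.

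Promoter sequences were read from a RefSeq table of build GRCm38.p6, which is not the build of the peaks, so they were not placed on the peaks. It held 10 promoters, each of 300 bases (250 before to 50 after a gene start), for 8 of the 9 genes, all but Il2rb. Each was searched on both strands for the forkhead letters GTAAACA and for TTCNNNGAA, the palindromic pattern that Stat dimers are known to bind. One promoter, that of Il21r, held GTAAACA, which 3.65% of all 32851 promoters in the table hold. None of the 10 held TTCNNNGAA, found in 8.3% of all promoters. Further forms of the forkhead letters were searched by a choice made after the data were seen. The promoter of Il4ra held the form GTAAATA, which 3.04% of all promoters hold. The form ATAAACA, present in 4.6% of all promoters, was not found in these 10. Nor was the form ATAAATA, present in 5.6% of all promoters. At least 1 of the 4 forkhead forms was thus in 2 of these 10 promoters and in 15% of all promoters. The 2 stretches are shown because Il4ra and Il21r are neighbours in 1 window of this study. Capitals mark the matching letters, and the Il21r match is the reverse complement TGTTTAC.
Il21r, chr7:125603371-125603417 (GRCm38.p6, plus strand): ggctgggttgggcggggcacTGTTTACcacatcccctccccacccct
Il4ra, chr7:125552219-125552265 (GRCm38.p6, plus strand): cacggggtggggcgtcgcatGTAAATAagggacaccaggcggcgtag
The Il21r match lies 38 to 32 bases before the gene start and the Il4ra match 32 to 26 bases before it. A match describes letters only.

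Across the 6 windows antibody peaks stood at 28.1 per Mb, 4.15 times the autosomal density of their list (6.77 per Mb). Streptavidin peaks stood at 44.7 per Mb, 1.88 times the autosomal 23.7 per Mb. The windows held 1.59 streptavidin peaks per antibody peak, against 3.51 in the whole lists. The third list stood at 10.5 intervals per Mb, 7.48 times its autosomal 1.41, and the Stat window alone held 6 of its 12 intervals. Without that window the ratio was 4.84. Each of those 12 intervals covers a peak of both other lists, so the third ratio is not a separate measurement. The windows were chosen around genes, while the autosomal densities include stretches poor in genes, and the windows were proposed with results of these data known. The densities are therefore a description.

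**Figure D1:**
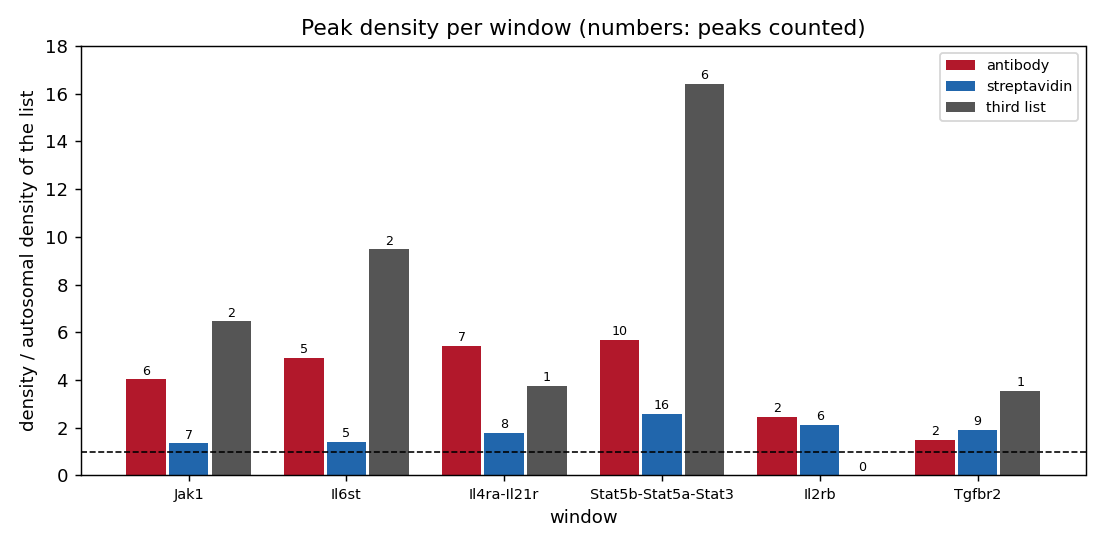
Bars give the density of peaks in each window divided by the autosomal density of the same list, for the antibody list, the streptavidin list and the third list; numbers above the bars are peaks counted and the dashed line marks a ratio of 1. The antibody ratio is highest in the Stat5b-Stat5a-Stat3 window (5.68) and lowest in the Tgfbr2 window (1.48), and the Il2rb window has 0 intervals of the third list. Each third-list interval in the windows covers a peak of both other lists, so its bars are not a separate measurement.

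Of the 32 antibody peaks 14 (43.8%, exact 95% binomial interval 26.4 to 62.3) met a streptavidin peak in 1 base or more and are called shared here; in the whole list the share was 21.9%. Of the 51 streptavidin peaks 14 (27.5%, 15.9 to 41.7) overlapped an antibody peak, against 6.2% of the whole list. The intervals cover counting error over peaks, and neighbouring peaks are not independent. Shared antibody peaks lay in 5 of the 6 windows, all but Il2rb, and 7 of the 14 lay in the Stat window. Without the Stat window the antibody share was 31.8% and the streptavidin share 20%.

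The score of a peak is the authors' value and was compared only within a list. Window antibody peaks scored 97.2 to 1298 with a median of 267, against a median of 167 in the whole list, and 19 of the 32 lay above that list median. Of the 32 peaks, 8 (25%) belonged to the highest-scoring 10% of the list, and each of the 6 windows had at least 1. Autosomes were also cut into tiles of each window's length, laid end to end. Such a peak lay in 11.6% of tiles of the Jak1 length, 8.35% for Il6st, 10.2% for Il4ra-Il21r, 13.3% for the Stat window, 6.88% for Il2rb and 10.6% for Tgfbr2. The tiles include stretches poor in genes, while the windows lie at genes and were proposed with results of these data known. The tile shares here and below are therefore a description and give no level of chance. Streptavidin peaks scored 53.0 to 1235 with a median of 76.0, close to the list's 74.7, and 7 of them (13.7%) belonged to the highest-scoring 10.1% of their list. These 7 lay in 4 windows, not in those of Il2rb and Tgfbr2. Most tiles also lacked such a streptavidin peak. One lay in 37.9% of tiles of the Jak1 length, 28.4% for Il6st and 34.1% for Il4ra-Il21r. For the Stat window the share was 42.6%, for Il2rb 23.5% and for Tgfbr2 35.1%.

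Sharing by score followed the same order in the windows as in the list. Of the 8 window antibody peaks in the highest 10%, 6 were shared, while 63.6% of all such antibody peaks were shared. Of the other 24 window peaks 8 were shared, against 17.2% in the rest of the list. Shared window antibody peaks had a median width of 309.5 bases and unshared ones 224 bases. The whole list had a median of 233 bases, which was not split by sharing. A wider peak also meets the rule of 1 base more easily. The strongest antibody peak was a shared one in 5 windows, and the strongest streptavidin peak in 4.

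**Figure D2:**
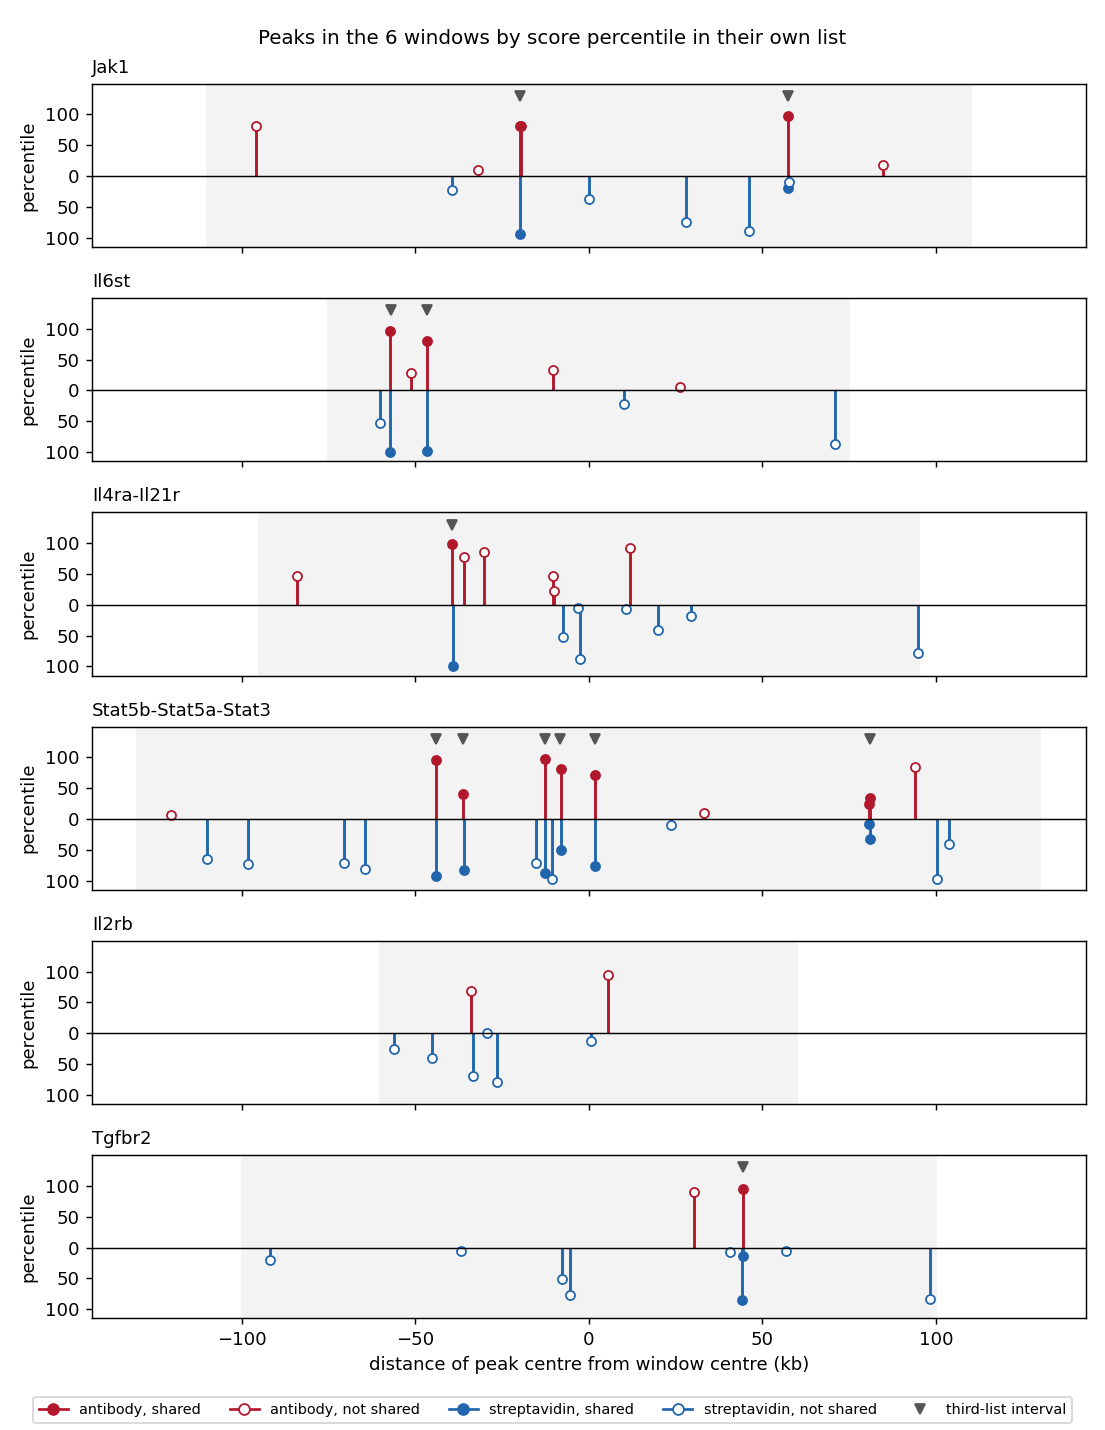
Each panel is 1 window (grey), with the distance of each peak's centre from the window's centre in kb on the x axis; antibody peaks point up and streptavidin peaks down, to the percentile of their score in their own list, filled where shared, and triangles mark the 12 intervals of the third list. Shared peaks of both lists stand opposite each other in 5 windows, and the Il2rb window has open symbols only.

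The IL-6 family receptor subunit Il6st, also called gp130, had the strongest streptavidin peak of the 6 windows. At chr13:113217631-113218004 the streptavidin score was 1235, rank 8 of 57748. The antibody peak at chr13:113217665-113217966 scored 744, rank 674 of 16473. Their centres were 2 bases apart, the closest of all pairs in the windows, and the antibody peak lay wholly inside the streptavidin peak. The next shared region had an antibody score of 276 at chr13:113228348-113228564 and a streptavidin score of 162 at chr13:113228178-113228489. The latter ranked 1397 in its list, and the centres were 122.5 bases apart.

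The other 3 antibody peaks of the Il6st window were weaker and unshared. They scored 131 (chr13:113223537-113223791), 137 (chr13:113264624-113264874) and 97.2 (chr13:113301125-113301382), all below the list median of 167. Their distances from the closest streptavidin centre were 4669.5, 20301 and 16203.5 bases. The 3 unshared streptavidin peaks scored 76.0, 64.1 and 109. In total the window had 5 antibody peaks, a number reached by 4.19% of autosomal tiles of 150 kb, and 5 streptavidin peaks, reached by 32.8%. Its 2 intervals of the third list were reached by 4.29%. In the gene table Il31ra, a related receptor gene, follows Il6st.

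The Il4ra-Il21r window is named for the genes of the IL-4 receptor alpha chain and of the IL-21 receptor, which are neighbours in the gene table. It had the strongest antibody peak of the 6 windows, with a score of 1298 and rank 247, at chr7:132695385-132695871. The streptavidin peak at chr7:132695653-132695913 scored 427, rank 120, and overlapped it by 219 bases, with centres 155 bases apart. The overlap was under 50% of the antibody peak's 487 bases, so that a definition of 50% of each peak left this window without a shared peak. This was the only shared region among 7 antibody and 8 streptavidin peaks.

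A second antibody peak of the highest 10% in that window was unshared. It scored 500 at chr7:132746837-132747054, and the nearest streptavidin peak, with a score of 56.0, was centred 1128.5 bases away at chr7:132745729-132745905. Antibody peaks at chr7:132698909-132699060 and chr7:132704710-132705073 scored 258 and 339, with no streptavidin centre within 3 kb. The remaining antibody peaks had scores of 161 (chr7:132650722-132650942), 161 (chr7:132724575-132724775) and 120 (chr7:132724900-132725258), the last pair only 124 bases apart. The 7 unshared streptavidin peaks scored from 53.4 to 112. A count of 7 antibody peaks was reached by 2.42% of tiles of 190 kb and one of 8 streptavidin peaks by 16.4%, while 18.3% held at least 1 interval of the third list.

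Just outside the window's start lay another shared region. The interval chr7:132632028-132632748 of the third list was centred 7.61 kb before the start, where an antibody peak of score 471 (chr7:132632260-132632661) and a streptavidin peak of score 132 (chr7:132632184-132632457) overlapped. The nearest antibody peak outside, 4.94 kb before the start, scored 160, beside 161 for the first one inside. In the Il2rb window the first peaks beyond the end were also close, an antibody peak of score 113 at 8.27 kb and a streptavidin peak of score 74.9 at 7.12 kb. Farther out, 45.57 kb past that end, lay an interval of the third list (chr15:78425462-78425670). There an antibody peak of score 371 and a streptavidin peak of score 85.3 overlapped. Beyond the end of the Stat window, at 20.72 kb, lay another interval of the third list (chr11:100870577-100870871), with an antibody score of 119 and a streptavidin score of 75.6. Before the start of the Stat window an antibody peak of score 198 lay at 13.91 kb and a streptavidin peak of score 96.9 at 17.69 kb. The edges of the windows decided that these peaks were not counted.

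At the other windows the closest peaks outside lay 9.15 kb or more from the edges. Before the start of the Il6st window a streptavidin peak of score 98.0 lay at 9.15 kb and an antibody peak of score 219 at 11.59 kb, while the last streptavidin peak inside, with a score of 109, was 4.18 kb from the end. The Jak1 window was followed by a streptavidin peak of score 78.3 at 11.55 kb and an antibody peak of score 188 at 39.54 kb. For Tgfbr2 the closest peaks outside were a streptavidin peak of score 107 at 43.82 kb and an antibody peak of score 225 at 63.06 kb, both before the start.

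Il2rb encodes the beta chain shared by the IL-2 and IL-15 receptors. By the overlap of 1 base or more, its window was the only one of the 6 without a shared peak. It held only 2 antibody peaks. In the whole lists 21.9% of antibody peaks and 6.2% of streptavidin peaks were shared, so few or none would not set this window apart. The stronger, at chr15:78325306-78325793, scored 600, rank 943, and its nearest streptavidin centre was 5046.5 bases away, at a peak with a score of 59.2. The weaker, at chr15:78285885-78286133, scored 216, and a streptavidin peak of score 87.2 was centred 715 bases away at chr15:78286620-78286828. This was the one unshared antibody peak of the windows with a streptavidin centre within 1 kb.

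The 6 streptavidin peaks of the Il2rb window scored from 53.0 to 95.6, the highest at chr15:78293417-78293647. All lay below the highest 10% of their list, and 23.5% of tiles of 120 kb held a peak of that kind. Among tiles of 120 kb, 19.8% held at least 2 antibody peaks and 12.2% at least 6 streptavidin peaks. Whether the region of the score of 600 had streptavidin signal below the authors' threshold was not tested, since no signal was analysed here. Tmprss6 and C1qtnf6 flank Il2rb among the coding genes of the table, and peaks were assigned by window and not by gene.

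The window of Tgfbr2, which encodes the type II receptor that binds TGF-beta, had the lowest antibody density of the 6. It held 2 antibody and 9 streptavidin peaks, or 4.5 streptavidin peaks per antibody peak. The antibody peak at chr9:116084208-116084510 scored 665, rank 795, and was met by streptavidin peaks on both sides. One, at chr9:116083886-116084233 with a score of 107, overlapped it by only 26 bases. The other, at chr9:116084345-116084605 with a score of 59.3, overlapped it by 166 bases.

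The other antibody peak of the Tgfbr2 window, at chr9:116070181-116070347, scored 408. It lay just below the highest 10% of its list, at percentile 89.7, and was unshared, with the nearest streptavidin centre 10270.5 bases away. The 7 unshared streptavidin peaks scored from 53.4 to 103. Of the tiles of 200 kb 31.9% held at least 2 antibody peaks, 12.1% at least 9 streptavidin peaks and 18.7% at least 1 interval of the third list.

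Jak1 encodes the Janus kinase used by the receptors of IL-2, IL-4, IL-6 and IL-21. The strongest antibody peak of its window, at chr4:100937198-100937569, scored 1029, rank 380. The streptavidin peak inside it, at chr4:100937289-100937523, scored only 62.4, at percentile 19.1 of its list, although the centres were 22.5 bases apart. A further streptavidin peak of score 56.9 lay beside it at chr4:100937642-100937850, without overlap. Of the 6 shared window antibody peaks in the highest 10%, this was the one whose strongest streptavidin partner lay below the list median. In the whole list this held for 149 of 1048 such peaks, or 14.2%.

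In the other shared region of the Jak1 window the balance between the lists was different. Antibody peaks at chr4:100859937-100860195 and chr4:100860230-100860423, 34 bases apart, scored 286 and 296. A single streptavidin peak of 483 bases, chr4:100859936-100860418, overlapped both with a score of 131, in the highest 10.1% of its list. Scores of 296 (chr4:100784233-100784341), 103 (chr4:100847917-100848143) and 113 (chr4:100964667-100964943) belonged to unshared antibody peaks, which lay 7476.5 to 37778 bases from the nearest streptavidin centre. The 5 unshared streptavidin peaks scored from 56.9 to 112. The counts of 6 antibody peaks, 7 streptavidin peaks and 2 intervals of the third list were reached by 5.31%, 33.6% and 7.1% of tiles of 220 kb.

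**Figure D3:**
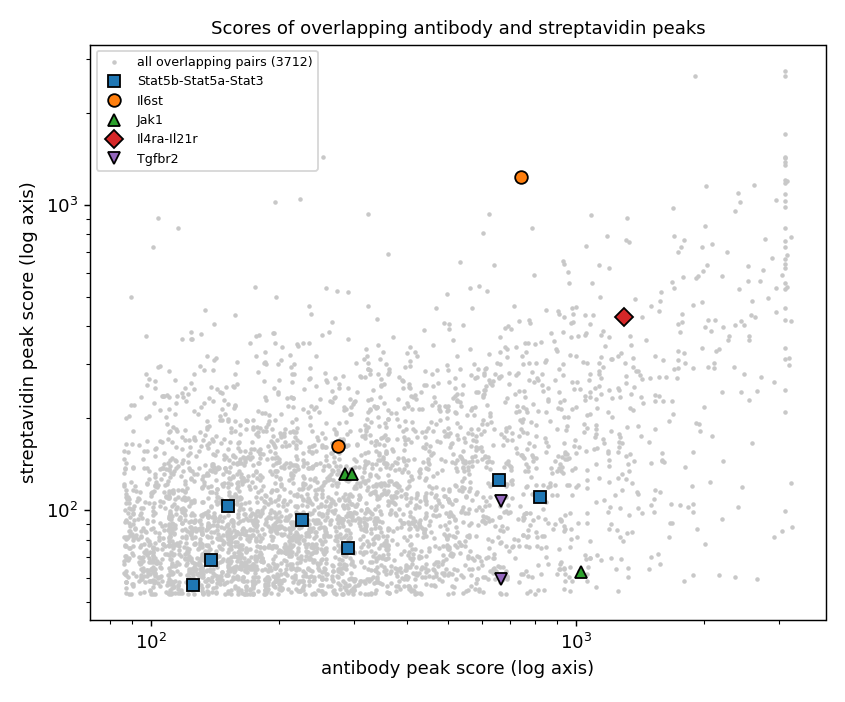
Each point is an overlapping pair of an antibody peak (score on the x axis, log) and a streptavidin peak (score on the y axis, log); grey points are all 3712 pairs and coloured symbols the 15 pairs of the windows. The Il6st pair (744 and 1235) and the Il4ra-Il21r pair (1298 and 427) stand high on both axes, while the strongest Jak1 antibody peak (1029) has a streptavidin score of 62.4.

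The window of Stat5b, Stat5a and Stat3, 3 neighbouring genes of Stat proteins, had the most peaks in each list: 10 antibody peaks, 16 streptavidin peaks and 6 intervals of the third list. Stat5a and Stat5b are close relatives that act downstream of IL-2, and Stat3 acts downstream of IL-6 and IL-21. Among 9247 autosomal tiles of 260 kb, 1.31% held at least 10 antibody peaks, 0.919% at least 16 streptavidin peaks and 0.0865% at least 6 intervals of the third list, the last being 8 tiles. The window is also the longest of the 6, but it kept the highest antibody density (38.5 per Mb) and the highest streptavidin density (61.5 per Mb). Of the 10 antibody peaks 7 were shared, as many as in the other 5 windows combined.

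A run of 5 of these intervals spanned 46.18 kb, chr11:100675786-100721963, with 5 antibody and 7 streptavidin peaks. The first pair had an antibody score of 660 (chr11:100675803-100676179) and a streptavidin score of 125 (chr11:100675814-100676141). The second pair scored 152 (chr11:100683728-100684043) and 103 (chr11:100683801-100684040). The strongest antibody peak of the window came next, at chr11:100707051-100707656 with a score of 825 and a width of 606 bases, the widest of the 32. It had a streptavidin score of 110 (chr11:100707042-100707539).

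The run ended with a pair of scores 292 (chr11:100711761-100712058) and 74.9 (chr11:100711764-100712041), and one of 227 (chr11:100721492-100721933) and 92.7 (chr11:100721606-100721926). In these 5 pairs the centres lay 7 to 63 bases apart. Every antibody peak of the run was shared. This was largely set by the choice of the run, since each of its third-list intervals covers a peak of both other lists. Streptavidin peaks of score 87.9 (chr11:100704541-100704901) and 149 (chr11:100709391-100709664) in the run were not shared. The latter was the strongest streptavidin peak of the window, rank 1925, and its nearest antibody centre was 2174 bases away.

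**Figure D4:**
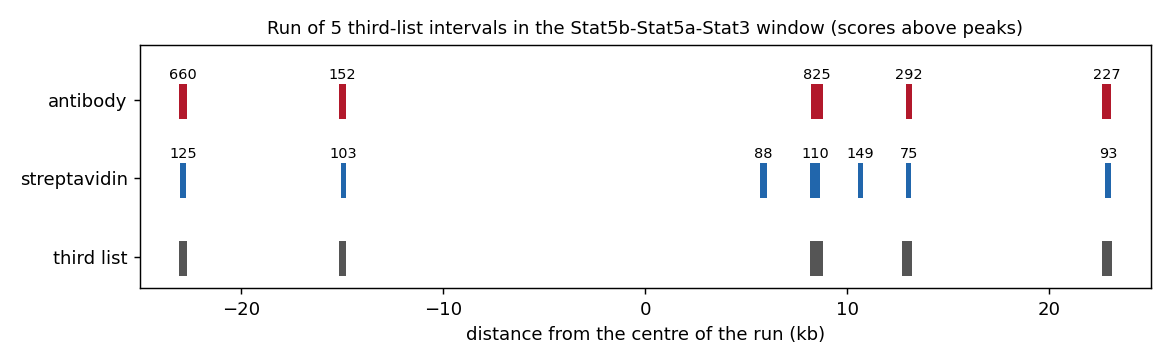
Antibody peaks, streptavidin peaks and intervals of the third list in the 46.18 kb run of the Stat window are drawn to scale against the distance from its centre in kb, with the authors' score above each peak. Each of the 5 antibody peaks (152 to 825) stands over a streptavidin peak (74.9 to 125), and the streptavidin peaks of score 87.9 and 149 have no antibody peak. The run was chosen by its third-list intervals, each of which covers a peak of both other lists.

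Farther along the Stat window the sixth interval of the third list, chr11:100800649-100801268, covered a pair of weak peaks in both lists. The antibody scores were 126 (chr11:100800649-100800849) and 139 (chr11:100800873-100801268), below the list median, and the streptavidin scores 56.7 (chr11:100800649-100800816) and 68.3 (chr11:100800925-100801171), also below the median of their list. The antibody peaks were 23 bases apart and the centres of the pairs 16.5 and 22.5 bases.

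The unshared antibody peaks of the Stat window scored 99.0 (chr11:100599710-100599914), 102 (chr11:100753076-100753289) and 323 (chr11:100813685-100813874). The strongest of them had its nearest streptavidin centre 6499 bases away, at chr11:100820193-100820364, a peak of score 148 in the highest 10.1% of its list. Without an antibody overlap were 9 streptavidin peaks in all, with scores of 58.3 to 149.

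**Figure D5:**
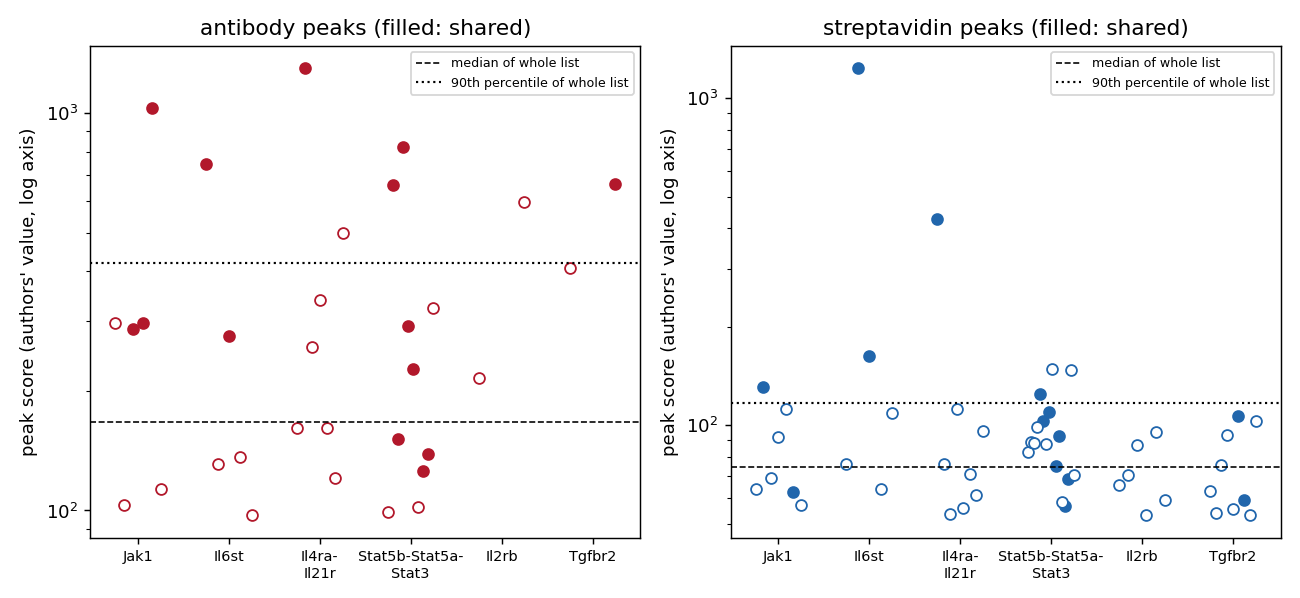
Each point is a peak, with the authors' score on a log axis and windows along the x axis, antibody peaks on the left and streptavidin peaks on the right; filled points are shared, and lines mark the median (167 and 74.7) and the 90th percentile (419 and 117) of the whole list. Every window has an antibody point above the upper line. The streptavidin points of the Il2rb and Tgfbr2 windows all lie below theirs. Of autosomal tiles of those 2 lengths, 23.5% and 35.1% hold a streptavidin peak of the highest-scoring 10.1%.

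Over the 15 overlapping pairs of the windows the centres were a median of 53.5 bases apart (2 to 299.5), and in 7 pairs, or 46.7%, they were within 50 bases. The 3712 pairs of the whole lists had a median of 60 bases and 43.3% within 50 bases. The overlap had a median of 240 bases in the windows and 213 bases over all pairs. Unshared antibody peaks lay a median of 8292.5 bases from the nearest streptavidin centre. This distance was not computed for the whole list, so it cannot be called a trait of the windows.

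The 12 intervals of the third list in the windows were 316 to 779 bases wide, and each covered at least 1 peak of both other lists. In 9 of them there was 1 peak of each. Only 2 had the same ends as the union of the peaks they covered, and the other 10 reached beyond it by up to 225 bases on one side. The largest excess was at the strong Il6st region, where the interval chr13:113217631-113218229 went on past both peaks. The widest interval, chr9:116083859-116084637 in the Tgfbr2 window, covered 1 antibody and 2 streptavidin peaks.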

How the data were processed

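ChIP-seq peak lists of mouse nTreg cells were analysed. The build mm9 and the programs MACS 1.4, Bowtie 0.12.7 and CASAVA 1.4 are named, without roles or settings, per the submitters' processing notes, and the names of 2 lists state a false discovery rate of 0.01. The score of each peak is a value deposited by the authors; its definition is in no header, and it was taken for a MACS value. The sources used here do not say which libraries or inputs entered each call. Library fragments of about 250 bases were amplified for 15 to 19 cycles, per the labels' protocols.

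Positions were counted from 1 and compared with Python 3.11.15, pandas 2.3.3 and SciPy 1.17.1. Overlap counts equalled those of bedtools 2.31.1, and the scripts were tested on simulated data with planted overlaps. Autosomal density used the span between the outermost peaks (2406 Mb), and tiles of each window's length were laid end to end over it. Exact intervals are Clopper-Pearson. No test was run, since each group has 1 library. The members and lists were chosen with earlier results of these data known. Named one by one were all antibody peaks, the streptavidin peaks that overlap them or lie in the highest 10% of scores, the strongest streptavidin peak of each window, intervals of the third list and peaks at window edges. Distances from genes and peak sequences need mm9 and were not analysed here, nor were other genes of the pathway. No values of the input libraries were used here.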

Additional observations from a re-analysis of the deposited data

How the results depend on the processing

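The counts, density ratios and shares were recomputed under 17 alternatives, of which the 6 that leave out 1 window each were chosen after the data were seen. Of 92 recomputed values 82 stayed within 1.5 times the reported count or ratio, within the exact interval of a share or within 10 percentile points. The exact interval is wide and covers counting error over peaks, so it is a loose limit for a change of setting. With scores of at least 100 the antibody share fell within it, at 30% in place of 43.8%. In the whole list that share was 11.5%, in place of 21.9%. The 10 values outside these limits were as follows. Windows widened by 50 kb held 49 antibody peaks, in place of 32, at a ratio of 4.16. Scores of at least 100, which by construction remove most streptavidin peaks, left 14 streptavidin peaks at 2.84 times their autosomal density, with 9 shared antibody and 8 shared streptavidin peaks and a streptavidin share of 57.1% (16.1% in the whole list). In the higher-scoring 50% of each list, a cut that lowers counts by construction, 19 antibody and 29 streptavidin peaks remained, and 9 streptavidin peaks were shared. The shares under this cut stayed within their limits. They were 31% for streptavidin peaks (6.75% in the whole list) and 52.6% for antibody peaks (23.6% in the whole list). Without the Stat5b-Stat5a-Stat3 window the ratio of the third list was 4.84, in place of 7.48. A further change stayed inside the limits and is not among the 10. With centres within 1 kb counted as shared, all 6 windows had a shared antibody peak, in place of 5. The antibody share was then 46.9% in the windows and 30% in the whole list. No paired analysis was possible because each group has 1 library, and no replicate could be left out. Read depth is unknown, so weak unshared peaks cannot be weighed against it.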
